A study of Danio rerio with 11 samples.

Results

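Eyes of zebrafish larvae with a mutated eMIC domain of srrm3 were compared with eyes of their wild-type (WT) siblings at 48, 60 and 72 hours post fertilization (hpf). The comparison used 6 of the 11 libraries of the series, chosen by genotype and stage: 3 of srrm3 mutant eyes and 3 of eyes WT for this domain, with 1 library per genotype and stage. Each library came from polyadenylated RNA of 20 to 60 eyes pooled per genotype, per the labels' protocols, so it averages several fish. Whole enucleated eyes were taken, so lens, pigment epithelium and surface tissue were sampled together with retina. The pair at 5 days post fertilization (dpf), from another library set, was left out of every test and is quoted only beside it.

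Srrm3 belongs to the serine/arginine repetitive matrix proteins and regulates splicing. Its eMIC domain, shared with its paralog Srrm4, drives the inclusion of microexons, very short exons that are spliced in mainly in neurons and photoreceptors and that alter protein surfaces without shifting the reading frame in most cases. Between 48 and 72 hpf the zebrafish retina completes its layers, photoreceptors switch on the phototransduction genes and begin to build outer segments, and lens fibres fill with crystallins. The deposited values are gene totals, so the splicing of microexons was not analysed here.

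The libraries held 37724575 to 45570408 counts. Levels are given as cRPKM, the deposited value scaled for gene length and depth. Across genes, siblings correlated at 0.9925, 0.9901 and 0.9912 at 48, 60 and 72 hpf (Pearson, log2(cRPKM + 1)), although genes are not independent replicates. Of 29387 genes with values, 20736 passed a filter on low counts and were tested with edgeR's quasi-likelihood test, with stage as a term, so that siblings were compared within each stage. With 1 library per genotype and stage, a gene's own spread is the variation of its genotype difference among the 3 stages, on 2 residual degrees of freedom. edgeR moderates this spread with a trend over all genes, so each p rests on both. Nothing in the labels says whether the 3 stages came from separate clutches. Eye identity was checked with the markers PAX6, SIX3, rx1, rx2, crx and CRX, and all of these genes were detected in all 6 libraries at a cRPKM of 6.90 or more. The pancreatic protease gene ela2l was listed at 0 in all 6, but a list of exocrine pancreas genes summed to 8.33 to 18.27 cRPKM. Skeletal muscle genes summed to 3032 to 19220 cRPKM, so the 0 of ela2l does not stand for other tissues.

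The transcript of the mutated gene itself was present in both genotypes. srrm3 stood at 1.76, 2.36 and 2.64 cRPKM in mutant eyes at 48, 60 and 72 hpf, against 1.09, 2.06 and 1.26 in WT eyes. It was higher in the mutant library of each pair, and its values in the 2 genotypes overlapped. The log2 fold change was 0.56 ± 0.19 (standard error, SE), with an unadjusted p of 0.00987 and an adjusted p of 0.806 by edgeR with Benjamini-Hochberg adjustment. Without the 60 hpf pair the value was 0.83 with an adjusted p of 0.0239, and without the 72 hpf pair it was 0.35 with an adjusted p of 0.954. A mutation within a domain need not lower the transcript, so its level is a weak check of the labels. Its paralog srrm4 stood at 2.58, 1.76 and 2.47 cRPKM in mutant eyes and at 2.37, 2.36 and 1.45 in WT eyes, a log2 fold change of 0.07 ± 0.23. The sign of srrm4 turned without the 72 hpf pair, to −0.22.

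Only 3 genes differed between mutant and WT eyes at an adjusted p under 0.05, and each was lower in the mutant. That is 0.0145% of the genes tested for lower calls and 0% for higher calls. At an unadjusted p under 0.05 there were 598 lower and 320 higher genes, 918 in all, where 1037 would be expected by chance. DESeq2, run on the same counts, called 49 genes lower and 5 higher, or 0.836% and 0.0853% of the 5861 genes to which it gave an adjusted p. The 3 edgeR calls and 1 paralog are described first.

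The gene of lowest p was ENSDARG00000100145, for which the files give no function. It stood at 9.76, 13.24 and 10.22 cRPKM in mutant eyes at 48, 60 and 72 hpf, against 17.13, 36.12 and 27.83 in WT eyes. Every mutant library was below every WT library, and the gap was narrowest at 48 hpf. Its log2 fold change was −1.31 ± 0.14 (adjusted p = 0.0174 by edgeR), and it lay between −1.53 and −1.18 with each pair left out in turn. In the 5 dpf pair, which the fit did not use, it stood at 13.07 cRPKM in mutant eyes and 45.5 in WT eyes.

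snap91b encodes a member of the AP180 family of clathrin assembly proteins, which act in the recycling of synaptic vesicles. It stood at 12.37, 27.86 and 23.65 cRPKM in mutant eyes, against 18.75, 52.04 and 38.74 in WT eyes. The genotypes overlapped across stages, since the 48 hpf WT value lies below the later mutant values, but the mutant was lower in 3 of 3 pairs. The log2 fold change of −0.82 ± 0.11 passed both edgeR (adjusted p = 0.0435) and DESeq2 (adjusted p = 2.85e-06). Without the 48 hpf pair it was −0.89 and no longer passed edgeR (adjusted p = 0.0705). At 5 dpf the mutant and WT libraries stood at 29.69 and 83.94 cRPKM.

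Its paralog SNAP91 followed the same course at a lower level. It stood at 7.24, 16.63 and 10.32 cRPKM in mutant eyes and at 10.48, 26.4 and 15.02 in WT eyes. Its log2 fold change of −0.66 ± 0.10 did not pass edgeR (adjusted p = 0.108) and passed DESeq2 (adjusted p = 0.000379). At 5 dpf it stood at 16.78 cRPKM in mutant eyes and 38.1 in WT eyes. Reads could be shared between these 2 paralogs, so they are not independent of each other for certain.

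si:ch211-283g2.1 had the largest fitted fold of the calls and the lowest level. It stood at 0.26, 0.05 and 0.09 cRPKM in mutant eyes, from 28, 5 and 9 counts, against 1.17, 0.79 and 1.42 in WT eyes, from 132, 81 and 133 counts. The genotypes did not overlap at these stages. The log2 fold change was −3.22 ± 0.36 (adjusted p = 0.0207 by edgeR). The difference was not present at 5 dpf, where the mutant and WT libraries stood at 0.15 and 0.07 cRPKM. This gene is also the 12th gene after srrm3 on the same chromosome in the RefSeq gene order of assembly GRCz12tu.

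**Figure D1:**
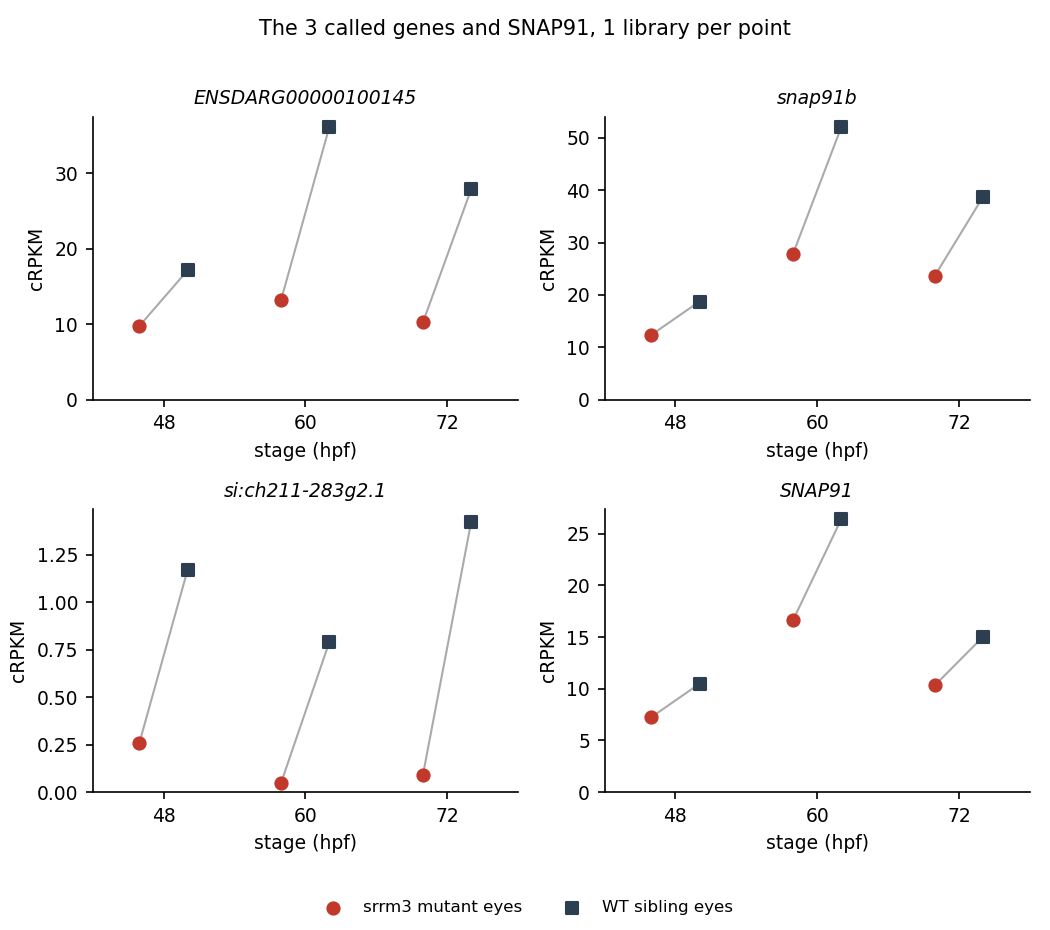
Level (cRPKM, linear axis from 0) of the 3 genes called by edgeR and of SNAP91 in each library at 48, 60 and 72 hpf, with srrm3 mutant eyes as circles on the left of each pair, WT sibling eyes as squares on the right, and a line joining siblings. Each mutant library lies below its WT sibling, as for ENSDARG00000100145 at 13.24 against 36.12 cRPKM at 60 hpf.

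Around these calls stood genes that were lower in 3 of 3 pairs without passing edgeR. Of all genes tested, 12.6% were lower and 10.5% higher in 3 of 3 pairs. si:dkey-183j2.10 stood at 0.28, 1.44 and 2.57 cRPKM in mutant eyes and at 0.46, 2.56 and 6.5 in WT eyes, with a log2 fold change of −1.09 ± 0.17 (adjusted p = 0.123). kcnh7, which encodes a voltage-gated potassium channel of the ERG family, stood at 2.36, 1.78 and 2.26 cRPKM in mutant eyes and at 3.23, 3.28 and 4.26 in WT eyes, with no overlap between the genotypes. Its log2 fold change was −0.82 ± 0.15 (adjusted p = 0.185). GNG11, which encodes a gamma subunit of heterotrimeric G proteins, stood at 4.37, 44.97 and 98.22 cRPKM in mutant eyes and at 5.61, 62.38 and 146.35 in WT eyes. It had a log2 fold change of −0.56 ± 0.11, with an adjusted p of 0.224 by edgeR and of 0.0132 by DESeq2. At 5 dpf GNG11 stood at 87.24 cRPKM in mutant eyes and 749.72 in WT eyes.

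Of the 12 genes of lowest p that were lower in 3 of 3 pairs, 10 were also lower at 5 dpf. The exceptions were RPL37 and RPL36. The share lower at 5 dpf was 28.4% for all 2618 genes lower in 3 of 3 pairs and 23.6% for all genes tested. The 12 include snap91b and SNAP91, and crygm2d3, crygm2d16 and crygm2d10. Reads may be shared within each of these families, so the 12 are not independent. Of the 12 of lowest p that were higher in 3 of 3 pairs, 11 were also higher at 5 dpf. The share higher at 5 dpf was 81.3% for all 2182 genes higher in 3 of 3 pairs and 76.1% for all genes tested. The 5 dpf comparison thus leans upward as a whole, and the second count lies nearer to its background than the first.

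The lens crystallins were lower in mutant eyes at 48 and 60 hpf and less so at 72 hpf. Crystallins are the soluble proteins that fill lens fibre cells, and the γM-crystallins are a fish family expressed as a large set of near-identical genes. The median log2 fold change of the 40 crystallin genes tested was −0.38, beside 0.00 for all genes, and 26 of the 40 were lower in 3 of 3 pairs while none was higher in 3 of 3. edgeR called 0 of the 40, and DESeq2 called 14 lower. Over all genes DESeq2 called 0.836% lower of the 5861 to which it gave an adjusted p. How many of the 40 had an adjusted p is not given here. By stage, 39, 38 and 27 of the 40 were lower in the mutant at 48, 60 and 72 hpf, with medians of −0.62, −0.51 and −0.13. The summed level of the list was 9368, 59100 and 57100 cRPKM in mutant eyes, against 12000, 82120 and 57240 in WT eyes.

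crygm2d3 stood at 25.46, 218.57 and 276.6 cRPKM in mutant eyes and at 41.45, 436.92 and 373.58 in WT eyes, a log2 fold change of −0.79 ± 0.13 (adjusted p = 0.123 by edgeR and 0.000115 by DESeq2). crygm2d16 stood at 21.92, 253.66 and 396.36 cRPKM in mutant eyes and at 45.27, 519.58 and 511.68 in WT eyes, a log2 fold change of −0.88 ± 0.14 (adjusted p = 0.144 by edgeR and 9.54e-05 by DESeq2). crygm2d10 was more abundant, at 175, 1212 and 1632 cRPKM in mutant eyes and 283.3, 2016 and 2084 in WT eyes, with a log2 fold change of −0.67 ± 0.11. In each of these genes the gap was widest at 60 hpf on the cRPKM scale and the mutant stayed below WT at 72 hpf. Reads can be shared among the crygm2d genes, so the single genes are uncertain and the set is better read together.

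Fitted log2 changes of the 40 ran between −0.88 for crygm2d16 and 0.22 for CRYBB3. CRYBA2 ENSDARG00000041925, a β-crystallin gene, stood at 779.05, 2946 and 3458 cRPKM in mutant eyes and at 1087, 3935 and 3996 in WT eyes, a log2 fold change of −0.45 ± 0.10 (adjusted p = 0.372 by edgeR and 0.0388 by DESeq2). CRYAA, which encodes the chaperone αA-crystallin, stood at 34.4, 126.95 and 75.34 cRPKM in mutant eyes and at 37.41, 160.08 and 46.58 in WT eyes. Its mutant library was the lower one at 48 and 60 hpf and the higher one at 72 hpf. Besides CRYBB3, crybb1l3 had a positive fitted change, 0.10 ± 0.15, and the sign of crybb1l3 turned without the 72 hpf pair. The median of the lens fibre membrane and filament genes was −0.05, with 4 of 28 lower and 1 of 28 higher in 3 of 3 pairs. Fewer lens fibre cells and less crystallin RNA per cell cannot be told apart in whole-eye RNA, and this holds for every cell type named here.

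The genes of cytosolic ribosomal proteins had the highest share of members lower in 3 of 3 pairs among the 32 lists. These proteins build the small and large ribosomal subunits and are made in balanced amounts in every growing cell. All 79 tested had a negative fitted fold change, 75 of the 79 were lower in 3 of 3 pairs, and the median log2 fold change was −0.30. By stage 79, 78 and 76 of the 79 were lower, with medians of −0.36, −0.26 and −0.27 at 48, 60 and 72 hpf. edgeR called 0 of them and DESeq2 called 10 lower, beside 0.836% of the 5861 genes to which it gave an adjusted p. How many of the 79 had one is not given here. RPL37, a protein of the large subunit, stood at 2342, 1967 and 3352 cRPKM in mutant eyes and at 3511, 2362 and 5338 in WT eyes, a log2 fold change of −0.58 ± 0.11 (adjusted p = 0.203 by edgeR and 0.00138 by DESeq2). RPL36, also of the large subunit, stood at −0.59 ± 0.11. At 5 dpf the direction was the opposite for RPL37, at 1624 cRPKM in mutant eyes and 1245 in WT eyes, and likewise for RPL36. In that pair 76.1% of all genes tested were higher in the mutant, so this direction is not particular to these genes.

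Gene length moved with the genotype difference in the 48 and 72 hpf pairs, beside both of these lists. The gene length implied by the deposited counts and cRPKM was short for ribosomal protein genes (median 639 bases) and crystallins (616 bases), against a median of 1895 bases over all genes tested. When all genes were put into 5 classes of equal size by implied length, the median log2 fold change was −0.09 in the shortest class, where 23.3% of genes were lower in 3 of 3 pairs. In the longest class these values were 0.05 and 4.70%. At 48 hpf the medians were −0.119 in the shortest and 0.071 in the longest class, and at 72 hpf −0.149 and 0.145. At 60 hpf they were −0.019 and −0.067, so the order was not kept in that pair, where the ribosomal and crystallin medians were −0.26 and −0.51. The part of gene length in the crystallin and ribosomal values was not tested beyond the offset given next. The 49 genes that DESeq2 called lower had a median implied length of 384 bases, and the 5 it called higher 17268 bases. With an offset that removed a smooth trend with length, chosen after seeing the data, the medians were −0.19 for ribosomal proteins and −0.28 for crystallins. Under that offset ENSDARG00000100145, snap91b and si:ch211-283g2.1 stayed called, and SNAP91 joined them (adjusted p = 0.0188 each).

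**Figure D2:**
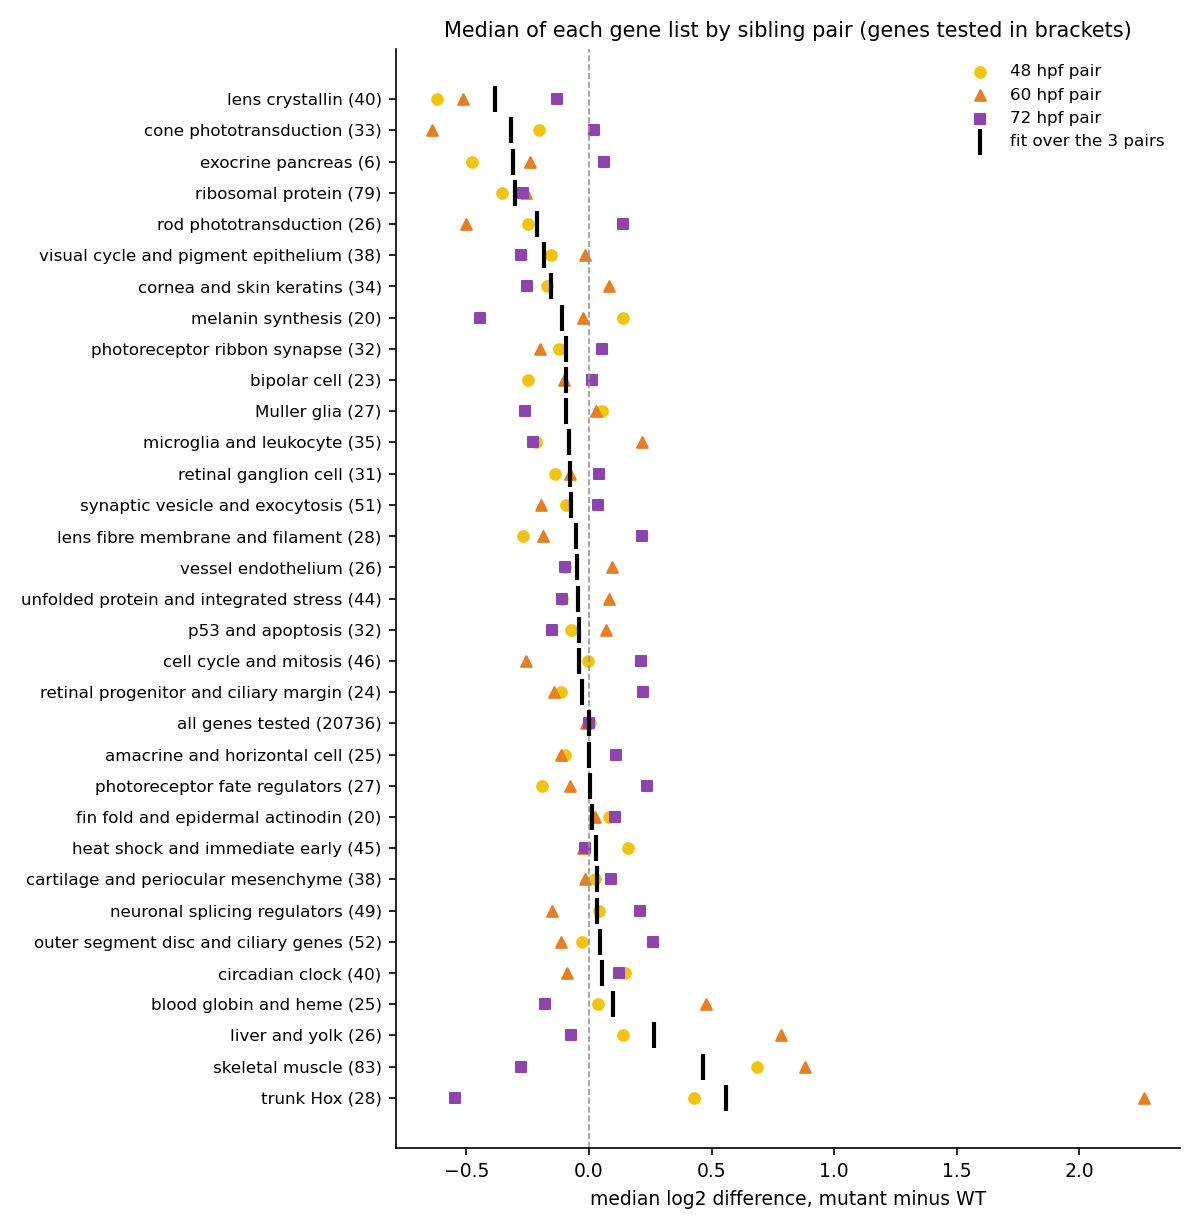
Median log2 difference, mutant minus WT, of each of the 32 gene lists and of all genes tested, with 1 marker per sibling pair (48 hpf circles, 60 hpf triangles, 72 hpf squares) and a black bar for the fit over the 3 pairs. Ribosomal proteins are negative in all 3 pairs with little spread, whereas the trunk Hox list runs between −0.55 at 72 hpf and 2.27 at 60 hpf.

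Photoreceptor genes were lower in mutant eyes at 60 hpf, when these genes are first abundant, and level or higher at 72 hpf. Rods and cones each carry their own opsins, transducins, phosphodiesterases and arrestins, the proteins that turn light into an electrical signal. The 33 cone phototransduction genes tested had a median log2 change of −0.32, with 11 lower and 1 higher in 3 of 3 pairs. The median of the 26 rod genes was −0.21, with 6 lower and 0 higher. edgeR called 0 members of either list. DESeq2 called 1 lower in each, opn1lw2 and saga, beside 0.836% of the 5861 genes to which it gave an adjusted p. By stage the cone medians were −0.20, −0.64 and 0.02 at 48, 60 and 72 hpf, and the rod medians −0.25, −0.50 and 0.14. At 48 hpf 24 of 33 cone genes and 20 of 26 rod genes were lower in the mutant. At 60 hpf 30 of 33 cone genes and 25 of 26 rod genes were lower, and at 72 hpf 18 and 18 were higher. Without the 72 hpf pair the cone median was −0.52 and the rod median −0.49. Without the 60 hpf pair they were 0.02 and −0.003, so both depended on that pair. In the same pair the summed levels of skeletal muscle, trunk Hox and liver and yolk genes were 9166, 75.56 and 3077 cRPKM in mutant eyes, against 3032, 15.58 and 1444 in WT eyes, and at 72 hpf they were 3091, 23.39 and 2223 in mutant eyes, against 4028, 34.07 and 2734 in WT eyes. The part of these tissues in the photoreceptor values was not tested.

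Among cone genes, opn1lw2, a red-sensitive opsin, stood at 2.16, 501.27 and 849.82 cRPKM in mutant eyes and at 3.67, 728.06 and 960.29 in WT eyes. Its log2 fold change was −0.53 ± 0.13 (adjusted p = 0.379 by edgeR and 0.0429 by DESeq2). pde6ha encodes a subunit that inhibits the cone phosphodiesterase. Its level was 0.95, 5.11 and 25.15 cRPKM in mutant eyes and at 2.16, 11.98 and 27.88 in WT eyes, a log2 fold change of −0.82 ± 0.23 (adjusted p = 0.598), and the value was −1.30 without the 72 hpf pair (adjusted p = 0.0292) and −0.46 without the 60 hpf pair (adjusted p = 0.471). The blue opsin gene opn1sw2 stood at −0.35 ± 0.14 and the cone transducin gene GNAT2 at −0.32 ± 0.17. The green opsin gene opn1mw2 lay on the other side of 0, at 0.07 ± 0.17, with 9.84 and 11.2 cRPKM in mutant eyes and 7.81 and 10.55 in WT eyes at 60 and 72 hpf. Another green opsin gene, opn1mw1, had a fitted change of −0.425, with −0.842 in the 60 hpf pair. The cone gene higher in 3 of 3 pairs was cngb3.1, with a fitted change of 0.91.

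Among rod genes, saga, a rod arrestin, stood at 1.15, 7.71 and 15.48 cRPKM in mutant eyes and at 1.77, 14.22 and 17.16 in WT eyes, with a log2 fold change of −0.62 ± 0.14 (adjusted p = 0.375 by edgeR and 0.0448 by DESeq2). Its paralog sagb stood at −0.44 ± 0.11 and the rod transducin gene GNAT1 at −0.37 ± 0.12. The opsin kinase gene grk1b, which the rod list holds but which is not thereby shown to be a rod gene, stood at −0.54 ± 0.17. Each of these genes was lower in 3 of 3 pairs and none was called by edgeR. The rod fate gene NR2E3 stood at 15.3, 39.58 and 26.89 cRPKM in mutant eyes and at 16.28, 37.34 and 22.14 in WT eyes, a log2 fold change of 0.02 ± 0.11. The list of photoreceptor fate regulators had a median of 0.00, with 0 of 27 lower and 3 of 27 higher in 3 of 3 pairs.

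The lists of structural and synaptic genes, which do not include snap91b, gave no edgeR call. The median log2 change of outer segment disc and ciliary genes was 0.04, with 2 of 52 lower and 2 of 52 higher in 3 of 3 pairs. The disc rim gene PRPH2 ENSDARG00000014840 stood at 0.12, 16.49 and 31.6 cRPKM in mutant eyes and at 0.15, 27.04 and 30.85 in WT eyes. Photoreceptor ribbon synapse genes had −0.10 as their median, with 6 of 32 lower and 0 higher in 3 of 3 pairs. STX3 ENSDARG00000001880, the syntaxin of ribbon synapses, stood at 4.18, 5.38 and 5.58 cRPKM in mutant eyes and at 4.88, 7.03 and 11.35 in WT eyes, a log2 fold change of −0.63 ± 0.16 (adjusted p = 0.487). Of the 51 genes of synaptic vesicles and exocytosis, 12 were lower and 4 higher in 3 of 3 pairs, with a median of −0.08. SNAP25 ENSDARG00000058117, a SNARE protein of vesicle fusion, stood at 18.21, 111.51 and 94.42 cRPKM in mutant eyes and at 25.29, 131.31 and 121.9 in WT eyes, a log2 fold change of −0.43 ± 0.11 (adjusted p = 0.405 by edgeR and 0.0493 by DESeq2). DNM1 ENSDARG00000009281, a dynamin of vesicle scission, stood at −0.34 ± 0.12, and BIN1 ENSDARG00000058820, an amphiphysin family member, at 0.46 ± 0.16 and was higher in 3 of 3 pairs.

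The lists of bipolar, amacrine and horizontal, ganglion cell, Müller glia and retinal progenitor genes showed no member called by edgeR or DESeq2. DESeq2 gave no adjusted p to some members, SCGN, RGS11 and mych among them, so it could not call these. How many members had one is not given here. The medians were −0.10 for bipolar cells, 0.00 for amacrine and horizontal cells, −0.08 for ganglion cells, −0.09 for Müller glia and −0.03 for retinal progenitors. The median of cell cycle genes was −0.04, with 6 of 46 lower and 2 of 46 higher in 3 of 3 pairs. The pigment epithelium and visual cycle list had a median of −0.18, with 10 of 38 lower and 3 higher in 3 of 3 pairs. Its medians were −0.16, −0.02 and −0.28 in the 48, 60 and 72 hpf pairs, and without the 72 hpf pair the median was −0.04. RPE65 ENSDARG00000007480, the isomerase that regenerates visual chromophore, stood at 8.64, 97.57 and 205.76 cRPKM in mutant eyes and at 12.84, 113.14 and 295.4 in WT eyes. Its log2 fold change was −0.51 ± 0.11 (adjusted p = 0.372 by edgeR and 0.0143 by DESeq2). The retinal G protein receptor gene rgrb stood at −0.34 ± 0.10 and the retinol-binding protein gene rbp4l at −0.36 ± 0.11, each lower in 3 of 3 pairs.

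**Figure D3:**
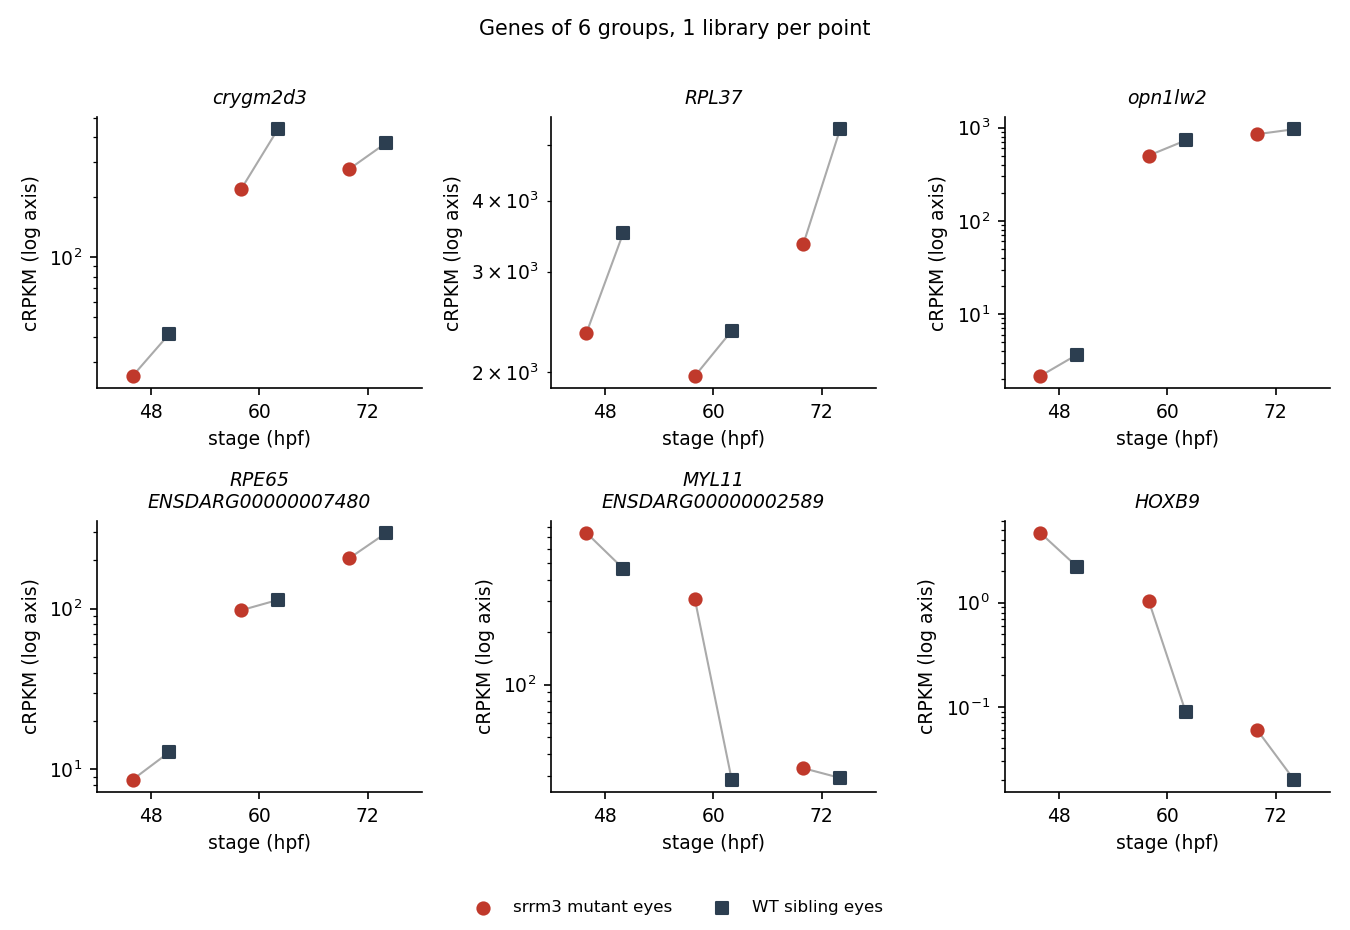
Level (cRPKM, log axis) in each library of a lens crystallin, a ribosomal protein, a red cone opsin, a pigment epithelium gene, a fast muscle myosin light chain and a trunk Hox gene, with srrm3 mutant eyes as circles left of WT sibling eyes as squares at each stage. At 60 hpf MYL11 ENSDARG00000002589 stood at 308.92 cRPKM in mutant eyes and 28.43 in WT eyes, and HOXB9 at 1.04 and 0.09.

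The list of neuronal splicing regulators, which holds srrm3, was near level. It also holds splicing factors that are not particular to neurons, such as SF1, U2AF1 and ESRP1, so its counts do not stand for neurons alone. Of 49 tested, 1 was lower and 7 were higher in 3 of 3 pairs, and the median log2 fold change was 0.03. None was called by edgeR or DESeq2. DESeq2 gave no adjusted p to srrm3, srrm4 and rbfox1l among others, so it could not call them. How many of the 49 had one is not given here. rbfox1l, of the Rbfox family of splicing factors, stood at 10.75, 5.95 and 6.7 cRPKM in mutant eyes and at 8.01, 4.67 and 5.16 in WT eyes, a log2 fold change of 0.31 ± 0.12 (adjusted p = 0.963). PTBP1 ENSDARG00000031907, a repressor of neuronal exons, stood at 53.31, 22.02 and 25.53 cRPKM in mutant eyes and at 40.94, 18.7 and 22.02 in WT eyes, a log2 fold change of 0.20 ± 0.10. RBFOX3 ENSDARG00000074310 lay furthest in the other direction, at −0.23 ± 0.24.

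edgeR called 0 genes higher in mutant eyes. The 5 that DESeq2 called higher, 4 of them in the skeletal muscle list and 1 in the cartilage list, were smyhc1, both TTN genes, NEB and col9a1b. smyhc1, a slow muscle myosin heavy chain, stood at 32.9, 12.07 and 9.94 cRPKM in mutant eyes and at 17.26, 7.44 and 7.43 in WT eyes, a log2 fold change of 0.61 ± 0.12 (adjusted p = 0.224 by edgeR and 0.00539 by DESeq2). TTN ENSDARG00000000563 and TTN ENSDARG00000028213, which encode the giant sarcomere protein titin, stood at 0.62 ± 0.13 and 0.52 ± 0.12. NEB, the thin filament protein nebulin, stood at 0.65 ± 0.15. col9a1b, a collagen of cartilage, stood at 54.45, 34.65 and 14.81 cRPKM in mutant eyes and at 37.32, 20.04 and 11.65 in WT eyes, a log2 fold change of 0.49 ± 0.11. Titin and nebulin are among the longest genes, with implied lengths of 66713, 66460 and 17268 bases.

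Of the genes of lowest p that were higher in 3 of 3 pairs, 10 of 12 had their highest level at 48 hpf and their lowest at 72 hpf in both genotypes. ENSDARG00000074745 stood at 15.59, 6.78 and 0.94 cRPKM in mutant eyes and at 9.41, 2.73 and 0.37 in WT eyes, a log2 fold change of 1.00 ± 0.15 (adjusted p = 0.0997 by edgeR). zgc:113232 stood at 16.07, 6.67 and 1.06 cRPKM in mutant eyes and at 10.39, 2.43 and 0.45 in WT eyes, with 0.99 ± 0.17 (adjusted p = 0.144). cmn, which encodes calymmin and is known from the zebrafish notochord, stood at 5.73, 2.21 and 0.18 cRPKM in mutant eyes and at 2.86, 0.95 and 0.14 in WT eyes, with 0.92 ± 0.17 (adjusted p = 0.203). MATN3 ENSDARG00000069245, a matrilin of cartilage, stood at 11.12, 4.58 and 1.29 cRPKM in mutant eyes and at 7.04, 1.25 and 0.51 in WT eyes, with 1.15 ± 0.21 (adjusted p = 0.249). The cartilage and periocular mesenchyme list as a whole had 0.03 as its median, with 7 of 38 higher and 1 of 38 lower in 3 of 3 pairs. ENSDARG00000074745 and zgc:113232 passed edgeR with any 1 pair left out, with adjusted p of at most 0.0399.

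Markers of muscle and trunk followed the stage of the pair. The 83 skeletal muscle genes tested had a median log2 change of 0.46, with 13 higher and 5 lower in 3 of 3 pairs, which against 10.5% of all genes is 15.7%. At 48 and 60 hpf 73 and 67 of the 83 were higher in the mutant, with medians of 0.68 and 0.88, and at 72 hpf 64 were lower, with a median of −0.28. Their summed level was 19220, 9166 and 3091 cRPKM in mutant eyes and 11570, 3032 and 4028 in WT eyes. The 28 trunk Hox genes, which pattern the body axis behind the head, had medians of 0.43, 2.27 and −0.55 at 48, 60 and 72 hpf. Their summed level was 206.3, 75.56 and 23.39 cRPKM in mutant eyes and 162.1, 15.58 and 34.07 in WT eyes. The part of trunk and muscle tissue carried over with the eyes in the differences between the genotypes was not tested.

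Higher in 3 of 3 pairs, 72 hpf included, were 13 of 83 muscle genes and 6 of 28 trunk Hox genes (21.4%, against 10.5% of all genes). Of these, 5 are given singly here. Most members went the other way at 72 hpf, where 64 of the 83 and 21 of the 28 were lower. MYL11 ENSDARG00000002589, a fast muscle myosin light chain, stood at 741.41, 308.92 and 33.1 cRPKM in mutant eyes and at 461.99, 28.43 and 29.1 in WT eyes. HOXB9 stood at 4.65, 1.04 and 0.06 cRPKM in mutant eyes and at 2.2, 0.09 and 0.02 in WT eyes, a log2 fold change of 1.71 ± 0.44 (adjusted p = 0.702). Its sign at 72 hpf rests on very low levels. hoxb8b and HOXC9 stood at 1.06 ± 0.33 and 1.78 ± 0.55. RYR1 ENSDARG00000023797, the calcium release channel of muscle, stood at 4.67, 1.29 and 0.94 cRPKM in mutant eyes and at 2.24, 0.59 and 0.76 in WT eyes, a log2 fold change of 0.77 ± 0.15 (adjusted p = 0.309). Liver and yolk genes had a median of 0.27, with 0.78 in the 60 hpf pair.

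Of the 5 muscle-list genes lower in 3 of 3 pairs, CKMT2 ENSDARG00000069615 encodes a mitochondrial creatine kinase, an enzyme that buffers ATP. It stood at 0.83, 56.93 and 59.25 cRPKM in mutant eyes and at 4.04, 161.26 and 94.81 in WT eyes. In both genotypes its lowest level was at 48 hpf, when the summed level of the muscle list was highest. The log2 fold change was −1.39 ± 0.29 (adjusted p = 0.672), and it was −1.81 without the 72 hpf pair (adjusted p = 0.000206), −1.18 without the 48 hpf pair (adjusted p = 0.0399) and −1.15 without the 60 hpf pair (adjusted p = 0.726). At 5 dpf it stood at 206.06 cRPKM in mutant eyes and 622.31 in WT eyes.

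**Figure D4:**
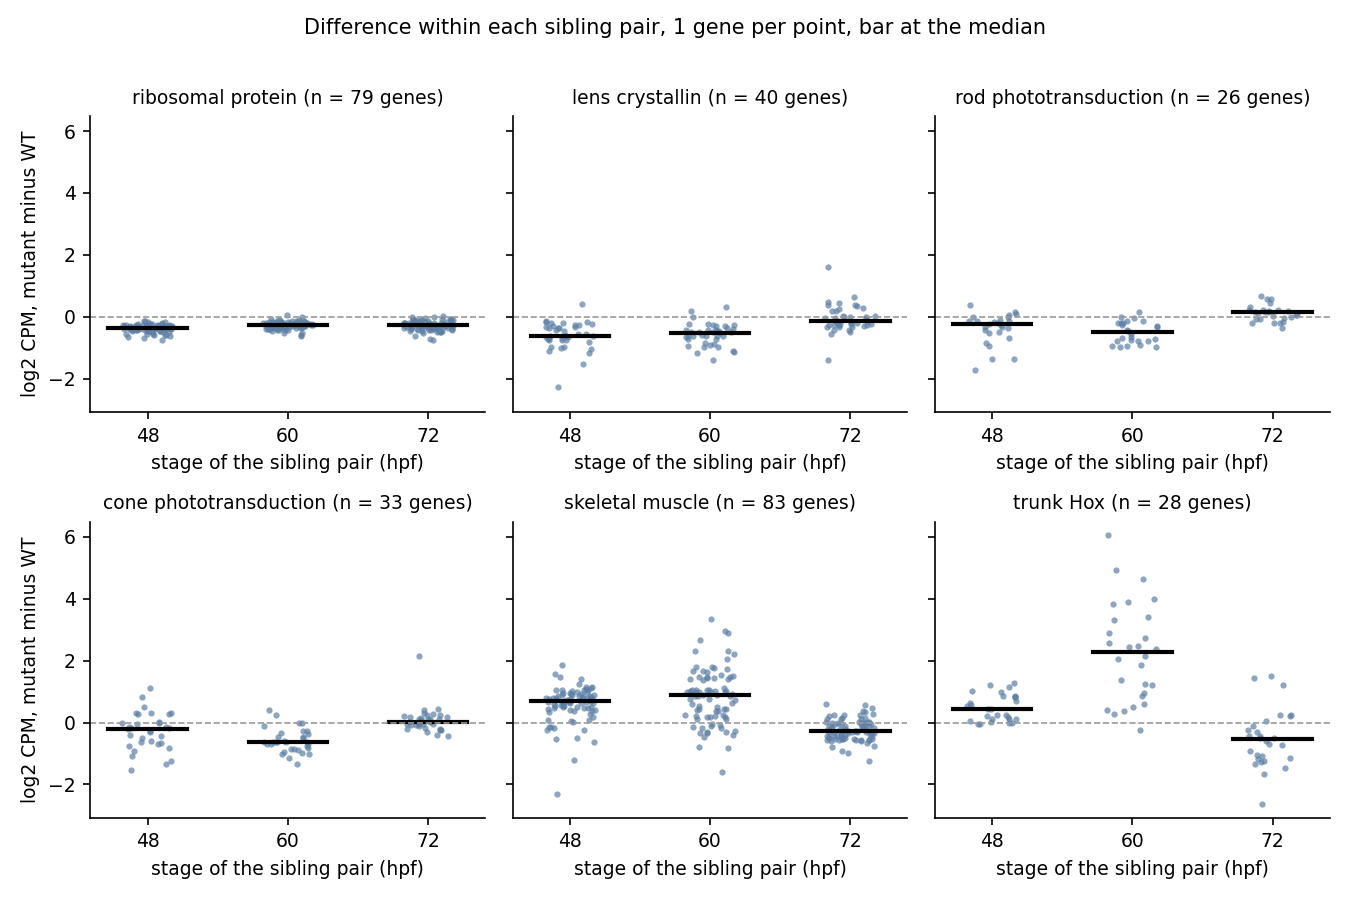
Difference in log2 CPM, mutant minus WT, of every tested member of 6 gene lists within the 48, 60 and 72 hpf sibling pairs, with 1 gene per point and a bar at the median. Ribosomal protein genes lie in a narrow band below 0 at all 3 stages, with medians of −0.36, −0.26 and −0.27, whereas skeletal muscle and trunk Hox genes lie mostly above 0 at 48 and 60 hpf and mostly below 0 at 72 hpf.

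Taken pair by pair, with no test, the 60 hpf pair held the most differences. Genes were counted when they differed at least 2-fold on the log2(cRPKM + 1) scale and reached 5 cRPKM in the higher library. At 48 hpf 55 genes were higher and 20 lower in the mutant (0.496% and 0.18% of 11098), at 60 hpf 147 were higher and 31 lower (1.31% and 0.277% of 11203), and at 72 hpf 29 were higher and 37 lower (0.247% and 0.315% of 11730). Of 61 skeletal muscle genes at 5 cRPKM or more at 48 hpf, 13 were among the 55 higher genes. At 60 hpf 29 of 56 were among the 147 higher genes. The same held for 6 of 6 trunk Hox genes and 9 of 20 liver and yolk genes at that level. At 60 hpf 2 of the 20 liver and yolk genes and 1 of the 56 skeletal muscle genes stood among the 31 lower ones. None of these pairs has a replicate of its own.

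At 48 hpf the immediate early gene FOS, a transcription factor induced within minutes of a stimulus, was the furthest above WT, at 23.69 cRPKM in the mutant library and 4.03 in the WT library. It stood at 6.03 against 6.4 and at 6.04 against 7.31 cRPKM in mutant and WT eyes at 60 and 72 hpf. Of 29 heat shock and immediate early genes at 5 cRPKM or more, 4 were at least 2-fold higher at 48 hpf. The lowest at 48 hpf was CYP1A1, a detoxifying enzyme of the aryl hydrocarbon receptor pathway, at 7.92 cRPKM in the mutant library and 26.75 in the WT library. At 60 hpf the lowest was fabp10a, a liver fatty acid binding protein, at 2.31 cRPKM in the mutant library and 22.35 in the WT library, and at 72 hpf it stood at 6.75 and 2.62. At 72 hpf the actinodin genes of the fin fold, which build its fibres, were among the lowest, although the fin fold list as a whole had a median of 0.105 in that pair and 3 of its 14 members at 5 cRPKM or more were at least 2-fold lower. The level of and3 stood at 1.22 cRPKM in the mutant library and 14.35 in the WT library, and and2 at 1.92 and 17.6, while both were higher in the mutant at 60 hpf.

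Whether the genotype difference changed with stage was tested in 1 fit with a genotype by hours term, on 1 residual degree of freedom. The spread of each gene was again moderated over all genes. 0 of 20736 genes passed edgeR, with 506 at an unadjusted p under 0.05 and 0.215 as the lowest adjusted p. Changes are per 12 hours, mutant over WT. CKMT2 ENSDARG00000069615 had an estimate of 0.80 ± 0.19 (adjusted p = 0.474). TYR, the tyrosinase of melanin synthesis, had an estimate of −0.79 ± 0.16 (adjusted p = 0.221), with 21.67, 9.58 and 18.94 cRPKM in mutant eyes and 10.95, 7.5 and 28.63 in WT eyes. JUNB ENSDARG00000104773, another immediate early gene, had an estimate of −0.74 ± 0.17 (adjusted p = 0.429). The differences between stages in the photoreceptor, muscle and trunk lists are descriptions of 3 single pairs.

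The neighbours of srrm3 were examined because mutants and WT siblings can differ in a stretch of chromosome inherited with the mutation. Among the 30 nearest measured neighbours in the RefSeq order, 5 had an unadjusted p under 0.05 (16.7%), against 28 of 817 on the rest of the chromosome (3.43%) and 4.43% of all genes. Of these 30, 8 were lower and 1 higher in 3 of 3 pairs. On the rest of the chromosome 81 of 817 were lower and 76 higher, and of all genes 12.6% were lower and 10.5% higher. Besides the called gene si:ch211-283g2.1, ZNHIT3, a zinc finger protein gene 4 genes after srrm3, stood at −0.76 ± 0.20 (adjusted p = 0.509 by edgeR). ca4a, a carbonic anhydrase gene 17 genes before srrm3, stood at −0.64 ± 0.15 (adjusted p = 0.372). The lysosomal enzyme gene GUSB and the ribosomal stalk gene RPLP0, 27 and 24 genes before it, stood at 0.42 ± 0.13 and −0.34 ± 0.11. RPLP0 is also in the ribosomal protein list, where all 79 genes had a negative fitted change and the median was −0.30. An effect of the mutation and of alleles linked to it cannot be told apart for these genes in this design.

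**Figure D5:**
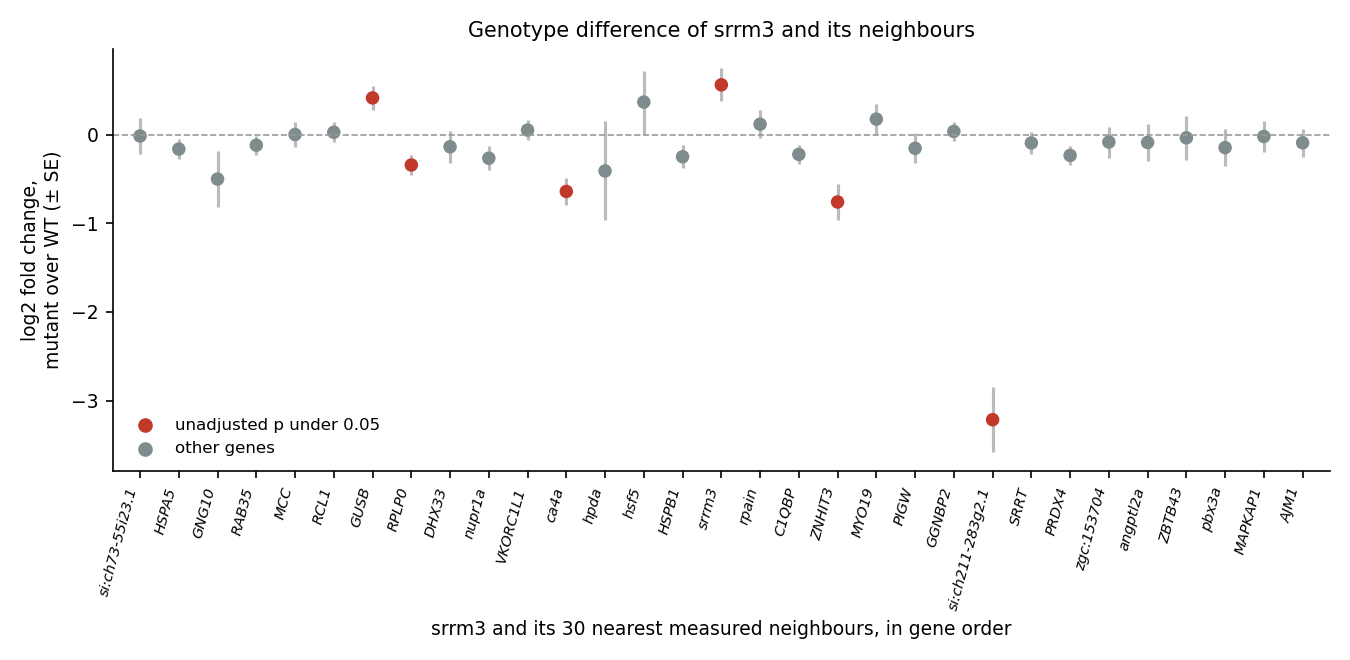
Log2 fold change, mutant over WT, with SE, of srrm3 and its 30 nearest measured neighbours in gene order, with genes at an unadjusted p under 0.05 in red. si:ch211-283g2.1 stands alone at −3.22, and the other neighbours lie between −0.76 and 0.42.

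Stress and death genes gave no call by edgeR or DESeq2. How many of these genes had an adjusted p by DESeq2 is not given here. The unfolded protein and integrated stress list had a median log2 change of −0.04 and the p53 and apoptosis list −0.04, with 5 of 44 and 5 of 32 lower and 4 of 44 and 4 of 32 higher in 3 of 3 pairs. rps27l, known in human as a p53 target and related to a ribosomal protein, stood at 45.21, 43.31 and 66.12 cRPKM in mutant eyes and at 59.83, 54.09 and 85.94 in WT eyes, a log2 fold change of −0.44 ± 0.10 (adjusted p = 0.372). The median of microglia and leukocyte genes was −0.08, with 3 of 35 lower and 3 higher in 3 of 3 pairs.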

How the data were processed

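Per the labels, polyadenylated RNA of pooled zebrafish eyes was sequenced. The authors deposited, for each library, a whole-number read count and a cRPKM (a value of the RPKM kind, scaled for length and depth) per gene. The submitters' processing notes name the build danRer10. Which aligner and counter were run, whether strand was used and what the letter c corrects are points not given in the sources used, and overlapping, antisense and near-identical genes are uncertain. Of 31848 identifiers, 2461 had no value. Symbols came from a table of gene names (87.4% of 29387 genes). Genes were also matched to list symbols in their human form without the final paralog letter.

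Counts were analysed in R 4.3.3 with edgeR 4.0.16 (TMM, filterByExpr, robust quasi-likelihood, stage plus genotype, Benjamini-Hochberg 0.05), and log2 fold changes are mutant over WT. SE is the log2 change, without its sign, over the root of F. DESeq2 1.42.0 and limma 3.58.1 served as alternatives. DESeq2 gave no adjusted p to 14875 genes, among them ENSDARG00000100145 and si:ch211-283g2.1. Pair values of lists are log2 CPM differences with a prior count of 0.5. Gene length was implied by count over cRPKM, which gave the same length in all libraries to within 0.452% at the 99th percentile. The scripts were tested on simulated data. Values are from pooled fish, so p-values rest on the spread between these libraries, moderated over all genes.

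The comparison and the 32 lists were chosen with earlier results of these data known. Genes were named by this rule, with the exceptions stated beside them: splicing regulators, all calls, the 12 of lowest p in each direction with 1 sign in 3 of 3 pairs, the leading members of each list and the extremes of each pair and of the change with stage. Some genes that the rule names are not reported here.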

Additional observations from a re-analysis of the deposited data

How the results depend on the processing

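The count of lower calls, 3 by edgeR, was 49 with DESeq2 and 31 with DESeq2 without independent filtering (added after seeing the data), 9 without a filter on low counts, 1 with a mean cRPKM of at least 1, and 0 without the stage block and with limma on log2(cRPKM + 1) or log2(cRPKM + 0.1), where 24, 1042 and 1038 genes had an unadjusted p under 0.05. Higher calls, 0 by edgeR, were 5 with DESeq2, 11 with DESeq2 without independent filtering and 5 without a filter. With 1 pair left out, lower calls ran between 4 and 103 and higher calls between 4 and 75. The lowest counts came without the 48 hpf pair, 103 lower without the 60 hpf pair and 75 higher without the 72 hpf pair. ENSDARG00000100145 and si:ch211-283g2.1 were called by edgeR with any 1 pair left out. Neither was called without the stage block, with limma or by DESeq2 with independent filtering, which gave them no adjusted p. With a mean cRPKM of at least 1, only ENSDARG00000100145 was called. snap91b was not called by edgeR without the 48 hpf pair (adjusted p = 0.0705) or with DESeq2 size factors (0.0656). It was also not called with a mean cRPKM of at least 1 (0.0504), without robust fitting (0.0944), without the stage block or with limma. The change with stage had 2 falling and 3 rising calls without a filter, and 0 otherwise. With no filter, or with one at 1 cRPKM, 2-fold genes numbered 136 higher and 109 lower in the 48 hpf pair, 279 higher and 114 lower in the 60 hpf pair, 125 higher and 126 lower in the 72 hpf pair. With 1 pair left out, log2 changes ran between −0.026 and 0.274 for crybb1l3, −0.223 and 0.377 for srrm4 and −0.082 and 0.098 for NR2E3, whose signs turned without the 72 hpf pair, and between −0.597 and 0.024 for GNAT2 and −0.020 and 0.126 for opn1mw2, whose signs turned without the 60 hpf pair. The sign of opn1mw2 also turned (−0.015) with limma on log2(cRPKM + 0.1). The causes were not tested. The stage block already pairs each mutant library with its sibling, and 1 library per genotype and stage allows no further pairing. With 3 pairs an exact sign-flip test cannot go below p = 0.25.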

Other observations

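The 40 circadian clock genes tested had 0.05 as their median log2 change, with 8 higher and 2 lower in 3 of 3 pairs. None of them was called by edgeR or DESeq2. How many of the 40 had an adjusted p by DESeq2 is not given here. Cornea and skin keratins had a median of −0.16, with 9 of 34 lower and 1 higher in 3 of 3 pairs, and melanin synthesis genes −0.11, with −0.45 in the 72 hpf pair alone. Blood genes had a median of 0.10, vessel endothelium −0.05 and the 6 exocrine pancreas genes that passed the filter −0.31.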
